A study of Homo sapiens with 4 samples.

Results

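The glycolytic enzymes described here are the products of 10 genes, each catalysing a successive step from glucose 6-phosphate to lactate: GPI, PFKL, ALDOA, TPI1, GAPDH, PGK1, PGAM1, ENO1, PKM and LDHA. They were taken by gene symbol, and they are 10 of the 57979 genes with values and 10 of the 13246 genes tested. All 10 passed the filter on low values, an average FPKM above 1, where FPKM is the number of fragments mapped to a gene scaled to the length of its transcript and to all fragments mapped in the library. The libraries were made from polyadenylated RNA of a cell line labelled HepG2, a human liver cancer line, grown in DMEM with serum. Group WT had 2 libraries of wild-type cells, and group KO had 2 libraries of the same line in which TXNDC9 had been targeted by CRISPR-Cas9. TXNDC9 encodes a thioredoxin domain protein, and the series asked what it does in hepatocellular carcinoma. The study's methods give a pair of guide RNAs delivered with lentiCRISPRv2. Which guide each library carried, whether the knockout cells were 1 clone or a pool, and whether the libraries of a group came from separate cultures are not given in the sources used here. The p-values therefore measure the spread between these libraries, which may be technical.

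Glycolysis splits glucose into a pair of triose phosphates and then oxidises and rearranges them to pyruvate, with a net gain of ATP and NADH. In most proliferating tumor cells much of the pyruvate is reduced to lactate by lactate dehydrogenase, which regenerates the NAD+ that the GAPDH step consumes. Several of these enzymes are among the most abundant cytosolic proteins, and GAPDH mRNA is widely used as a reference for other mRNAs.

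The label of the knockout was checked first. TXNDC9 stood at 35.1 and 37.3 FPKM in the WT libraries and at 21.9 and 27.6 FPKM in the KO libraries. Both KO values lay below both WT values, with a log2 fold change of -0.55 (SE 0.139, limma adjusted p = 0.0145) that turned to 0.12 when each library was rescaled to the same sum (TPM). After the length and GC correction (given below) the log2 fold change was -0.26 (limma adjusted p = 0.142). The study judged its knockout by western blot of the protein, which mRNA levels do not measure. The label of the cell line was then set against its markers. None of 10 hepatocyte markers (albumin, alpha-fetoprotein, HNF4A and 7 others) was tested, the highest value of any was 0.449 FPKM, 2 were at 0 in all 4 libraries, and their summed level was 0.446 to 0.733 FPKM in WT and 0.0479 to 0.174 FPKM in KO. The marker genes that define the labelled cell type were thus at or near 0 in both groups, and the values below are those of the cells as sequenced. Summed fibroblast markers (4 of 6 tested) were 48.8 to 53.5 FPKM in WT and 34.4 to 38.1 FPKM in KO, with COL1A2 at 0 and PDGFRB called higher. Summed leukocyte markers (1 of 6 tested, led by CD68 at up to 6.90 FPKM) were 4.13 to 6.49 and 6.43 to 7.57 FPKM, and summed endothelial markers (1 of 5 tested, led by CDH5 at up to 4.26 FPKM, called higher) were 0.810 to 1.23 and 3.46 to 4.43 FPKM. The part of these marker levels in the results was not tested. The correlation of log2 values across genes, which are not independent replicates, was 0.976 between the WT libraries, 0.980 between the KO libraries and 0.859 to 0.897 between groups.

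Of the 10 enzymes, 3 were called lower in the knockout and 0 higher, where a call needed an adjusted p under 0.01 and a fold of at least 2 by limma, and all 10 log2 fold changes were below 0. The 3 were ALDOA, TPI1 and GAPDH, which catalyse consecutive steps in the middle of the pathway, and each fell to between 42.8% and 44.01% of its WT mean. Over all tested genes 15.3% were called lower (2021 genes) and 14.2% higher (1885 genes). The median log2 fold change of the 10 enzymes was -0.60, beside -0.09 over all tested genes. Both KO values lay below both WT values for 9 of the 10, against 45.9% of all tested genes, and PGAM1 was the exception. Abundant genes as a whole moved the same way: among the 1232 tested genes with an average FPKM above 100, 39.4% were called lower and 81.9% had both KO values below both WT values. The share of enzymes called and the share not overlapping were thus near those of other abundant genes. Because the libraries are of bulk RNA, fewer cells of a kind and less of an mRNA per cell cannot be told apart.

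**Figure D1:**
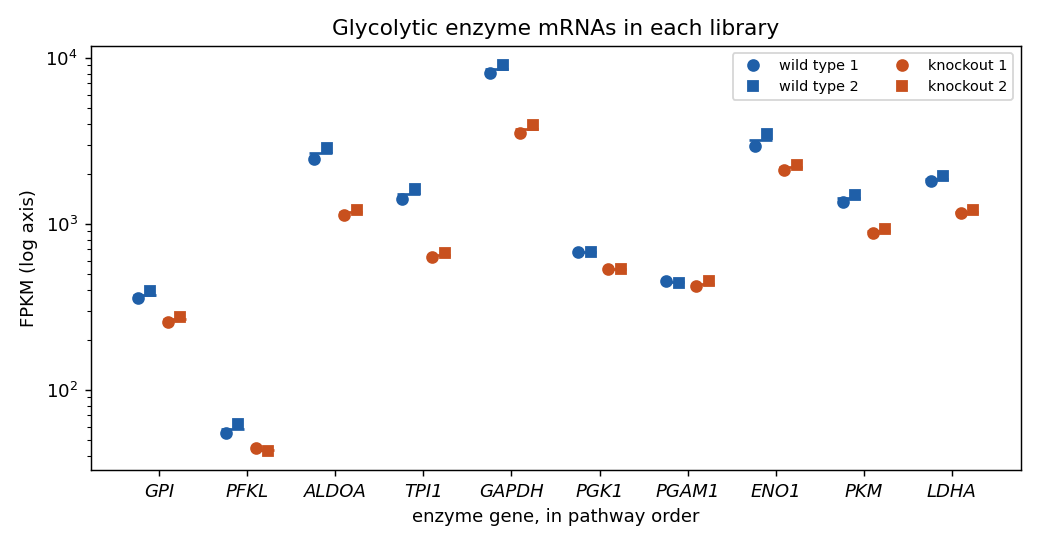
FPKM on a log axis for the 10 enzyme genes in pathway order, with circles and squares for libraries 1 and 2 of each group and short lines for the group means (n = 2). Blue WT points lie above orange KO points for 9 genes, and those of PGAM1 overlap.

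The first steps prepare the hexose for cleavage. GPI (chromosome 19, 34359480 to 34402413 in hg38), the isomerase that makes fructose 6-phosphate, had 357 and 391 FPKM in WT and 257 and 273 FPKM in KO. The groups were apart, with both KO libraries lower. Its log2 fold change was -0.50 (SE 0.129, limma with Benjamini-Hochberg adjusted p = 0.0166), short of a call. PFKL (chromosome 21, 44300051 to 44327376), the liver type subunit of phosphofructokinase at the committed step, was the lowest of the 10 at 55.0 and 61.8 FPKM in WT and 44.5 and 42.8 FPKM in KO. Here too the groups were apart, and the log2 fold change was -0.42 (SE 0.109, limma adjusted p = 0.0167).

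From FPKM as deposited, the enzymes of the triose stage differed most between the groups. Under TPM they were still the lowest of the 10, although PGAM1 differed by more in the other direction. After the length and GC correction PGK1, LDHA and GPI were lower than they were (both given below). ALDOA (chromosome 16, 30064164 to 30070457), the aldolase that cleaves fructose 1,6-bisphosphate, had 2450 and 2873 FPKM in WT and 1133 and 1210 FPKM in KO. The gap between the groups was wider than the spread within either, and the log2 fold change was -1.18 (SE 0.190, limma adjusted p = 0.00290). TPI1 (chromosome 12, 6867119 to 6870948), which interconverts the triose phosphates, had 1417 and 1615 FPKM in WT and 635 and 663 FPKM in KO. It fell by 1.22 on the log2 scale (SE 0.163, limma adjusted p = 0.00156), with the groups apart. GAPDH (chromosome 12, 6534512 to 6538374), the dehydrogenase that makes NADH and 1,3-bisphosphoglycerate, was the most abundant of the 10 at 8089 and 9019 FPKM in WT and 3526 and 3919 FPKM in KO. The groups were again apart, and it fell by 1.20 on the log2 scale (SE 0.246, limma adjusted p = 0.00695). Without the second WT library its limma adjusted p was 0.01997, above the threshold of 0.01, whereas ALDOA and TPI1 were still called. Without either KO library no gene of the 13246 was called by limma (7129 and 7307 had an unadjusted p under 0.05), although all 3 were still over 2-fold lower.

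The GAPDH value carries a limit of annotation. A gene on the opposite strand within it, RP5-940J5.9 (ENSG00000269968), was listed at 1904 and 2533 FPKM in WT and 774 and 893 FPKM in KO. The use of strand in the authors' counting is not stated, so reads of the pair cannot be told apart. TPI1 overlaps SPSB2 on the opposite strand, at 15.3 and 18.3 FPKM in WT and 9.08 and 8.36 FPKM in KO, which is small beside TPI1. The annotated span of PGK1 contains ATP7A, a copper transporter gene, which had 1.16 and 1.09 FPKM in WT and 5.38 and 5.21 FPKM in KO. Processed copies of the 10 genes, which can take reads from their parents, were listed on 95 rows, of which 21 were above 0, and the highest was LDHAP4 at 0.845 FPKM.

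The later steps harvest ATP and end in lactate. PGK1 (chromosome X, 77910739 to 78129295), the first ATP-making kinase of the pathway, had 679 and 676 FPKM in WT and 531 and 532 FPKM in KO. Replicates differed by under 1% here, the groups were apart, and the log2 fold change of -0.35 (SE 0.136) did not pass (limma adjusted p = 0.0631). PGAM1 (chromosome 10, 97426191 to 97433444), the mutase that moves the phosphate of 3-phosphoglycerate, had 454 and 438 FPKM in WT and 419 and 452 FPKM in KO. Its groups overlapped, with a log2 fold change of -0.04 and a 95% confidence interval from -0.37 to 0.29 (limma adjusted p = 0.820). ENO1 (chromosome 1, 8861000 to 8879190), the enolase that makes phosphoenolpyruvate, had 2923 and 3452 FPKM in WT and 2121 and 2267 FPKM in KO. The groups were apart, and the log2 fold change of -0.53 (SE 0.209) did not pass (limma adjusted p = 0.0638). PKM (chromosome 15, 72199029 to 72231819), the pyruvate kinase that yields the second ATP, had 1357 and 1498 FPKM in WT and 874 and 933 FPKM in KO. Both KO values were lower, with a log2 fold change of -0.66 (SE 0.165, limma adjusted p = 0.0147). LDHA (chromosome 11, 18394560 to 18408425), the main lactate dehydrogenase subunit of many tumors, had 1801 and 1935 FPKM in WT and 1158 and 1202 FPKM in KO. Its groups were apart, and its log2 fold change of -0.66 (SE 0.171, limma adjusted p = 0.0164) matched that of PKM. An adjusted p under 0.05 was reached by 7 of the 10 enzymes, all lower, against 36.7% of all tested genes and 73.1% of those above 100 FPKM, so the count is near that of other abundant genes. The 3 without one were PGK1, PGAM1 and ENO1.

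The WT libraries were not alike in level. The second WT library was higher than the first for 8 of the 10 enzymes, and the second KO library was higher than the first for 9. Summed over the 10 genes, FPKM came to 19581 and 21959 in WT and 10697 and 11494 in KO, a 1.87-fold difference of the means. All genes together summed to 805816 and 971102 in WT and 535973 and 568279 in KO, a 1.61-fold difference. As a share of all FPKM, the 10 genes took 2.43% and 2.26% in WT and 1.996% and 2.02% in KO, so the groups stayed apart within libraries by a smaller margin.

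The sum of FPKM over genes thus differed between groups, and the direction of most enzymes depended on it. When each library was rescaled to the same sum, which raised the median over the whole table from -0.09 to 0.59 (log2), the median of the 10 enzymes went from -0.60 to 0.08, and 7 were above 0 and 3 below. ALDOA (-0.50), TPI1 (-0.54) and GAPDH (-0.52) stayed lower under TPM with limma adjusted p of 0.000381, 0.000462 and 0.000371, but short of 2-fold, so that 0 enzymes were called. PKM and LDHA then stood at 0.02 each, ENO1 at 0.15, GPI at 0.19, PFKL at 0.26, PGK1 at 0.33 and PGAM1 at 0.64. The value of PGAM1 (limma adjusted p = 0.00209) was near the median of 0.59 over all genes. Relative to the median of all genes, 9 of the 10 enzymes lay below it from FPKM as deposited, with PGAM1 above it. Rescaling applies the same factor to all genes of a library, so the same order under TPM is not a separate result. After the length and GC correction (given below) PFKL (by 0.27), PGAM1 (by 0.47) and ENO1 (by 0.06) lay above the median of all genes, and the others below it. Calls over all genes shifted from 2021 lower and 1885 higher (51.7% lower) to 447 lower and 4380 higher (9.26% lower) under TPM.

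**Figure D2:**
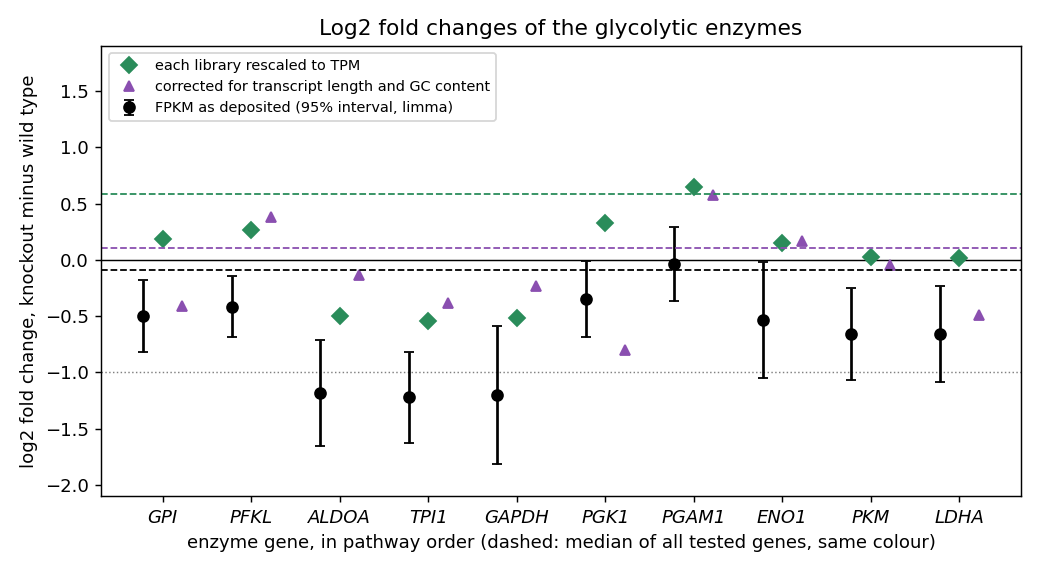
Log2 fold change (KO minus WT) of each enzyme from FPKM as deposited with its 95% interval (black), after rescaling to TPM (green) and after correction for transcript length and GC content (purple). Dashed lines give the median of all tested genes in the same colour, the dotted line a 2-fold fall; ALDOA, TPI1 and GAPDH lie past it from FPKM as deposited only.

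Transcript length ran along with these differences. The 3 enzymes called lower have the shortest canonical transcripts of the 10, GAPDH at 1285 nt, TPI1 at 1351 nt and ALDOA at 1640 nt. ENO1 (1781 nt) and PGAM1 (1802 nt) come next and were not called. LDHA (2241 nt) and PKM (2305 nt) lie between them and PFKL (2907 nt), GPI (4125 nt) and PGK1 (4812 nt). Over all genes with a transcript under 2000 nt, 31.1% were called lower, and the median log2 fold change was -0.72. Among those that also had an average FPKM above 100, 53.3% (396 of 743) were called lower and the median was -1.05. Longer transcripts at the same level had a median of -0.40. The enzymes called lower were thus near the median of short, abundant genes, while PGAM1 (-0.04) lay above the third quartile of that group (-0.70) and ENO1 (-0.53) did too.

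A loess correction of every library for length and GC content of transcripts left 0 enzymes called by limma over 13112 genes, with 6 at an unadjusted p under 0.05. TPI1 then stood at -0.39, GAPDH at -0.24 and ALDOA at -0.13, with limma adjusted p of 0.0258, 0.252 and 0.391. The lowest of the 10 became PGK1 at -0.80 (limma adjusted p = 0.00383), the longest, followed by LDHA at -0.49 and GPI at -0.41. PGAM1 (0.58), PFKL (0.38) and ENO1 (0.17) changed sign, with limma adjusted p of 0.00764, 0.0194 and 0.347. PKM stood at -0.04. The median of the 10 was -0.18 beside 0.11 over all genes, and calls over all genes were 661 lower and 1130 higher (36.9% lower). Length and GC content were corrected together, so the part of each was not tested.

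**Figure D3:**
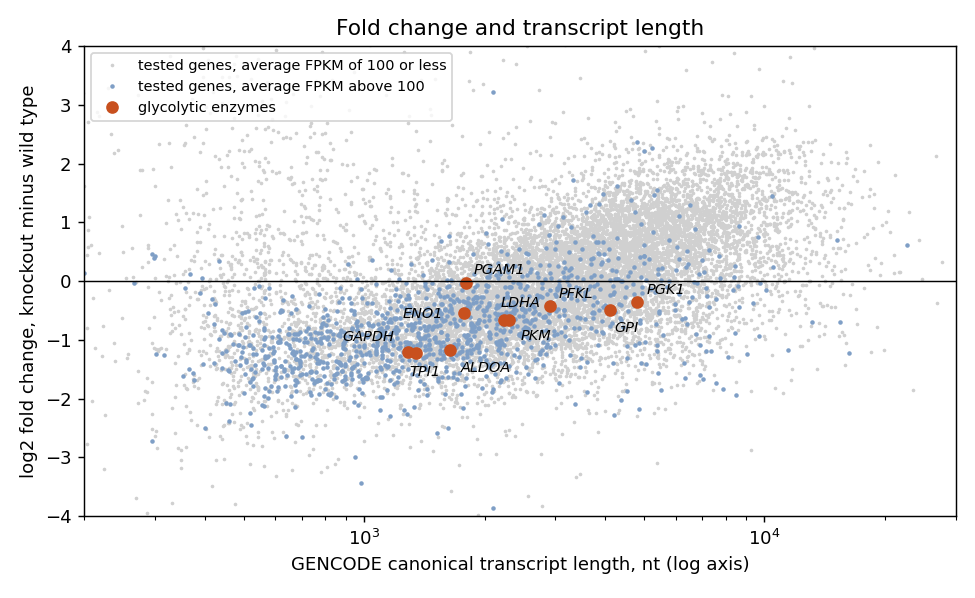
Log2 fold change (KO minus WT, FPKM as deposited) against canonical transcript length on a log axis for the tested genes between -4 and 4, with genes above 100 FPKM in blue and the 10 enzymes in orange. Short abundant genes lie mostly below 0, and GAPDH, TPI1 and ALDOA lie among them.

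Ratios within a library do not depend on how libraries were scaled. GAPDH held 41.3% and 41.1% of the summed FPKM of the 10 enzymes in WT and 33.0% and 34.1% in KO. ENO1 moved the other way, from 14.9% and 15.7% in WT to 19.8% and 19.7% in KO. ALDOA, TPI1 and GAPDH together took 61.1% and 61.5% of the sum in WT and 49.5% and 50.4% in KO. The groups were apart in each of these shares, with the triose enzymes lower and ENO1 higher. The shares were taken without the length and GC correction, and ALDOA, TPI1 and GAPDH have the shortest transcripts of the 10. After that correction PGK1, LDHA and GPI had lower log2 fold changes than they did, so the part of length and GC content in these shares was not tested. The ratio of GAPDH to PGAM1 was 17.8 and 20.6 in WT and 8.42 and 8.67 in KO, a log2 difference of -1.16. With 2 libraries a group the exact two-sided permutation test cannot go below p = 0.333, which this ratio reached.

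GAPDH against other genes used as references gave answers that depended on the reference. GAPDH over ACTB, the beta-actin gene, was 1.70 and 1.43 in WT and 1.67 and 1.63 in KO, overlapping between groups (log2 difference 0.08, exact permutation p = 1.0). ACTB was itself called lower, at 4747 and 6310 FPKM in WT and 2106 and 2398 FPKM in KO (log2 fold change -1.28, limma adjusted p = 0.00560). Against each of 10 other reference genes GAPDH was lower in KO with the groups apart (exact permutation p = 0.333, the smallest possible). The differences ran from -0.37 against PPIA, a cyclophilin, to -3.41 against TFRC, the transferrin receptor, which was called higher (94.3 and 73.9 FPKM in WT, 386 and 387 FPKM in KO). The ratios were taken without the length and GC correction. After it the log2 fold change of GAPDH was -0.24, above those of PPIA (-0.61) and ACTB (-0.56). It then lay below those of the other reference genes, which ran from -0.22 (GUSB) to 1.67 (TFRC). Relative to ACTB, all 10 enzymes were higher in KO, 7 of them with the groups apart, as were 84.2% of all tested genes and 70.2% of those above 100 FPKM.

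Isozymes, paralogs and other genes named like the enzymes were listed, 16 in all, of which 8 were tested. Called lower was 1 of these, called higher 0, and their median was -0.45 on the log2 scale. The called gene was ENO3, the muscle enolase, at 202 and 211 FPKM in WT and 92.8 and 82.4 FPKM in KO. It was more than 2-fold lower with the groups apart, by -1.24 on the log2 scale (SE 0.118, limma adjusted p = 0.000671), but it stood at -0.56 under TPM and -0.32 after the length and GC correction and was then not called. Its share of enolase FPKM went from 6.41% and 5.73% to 4.17% and 3.49%. LDHB, the other common lactate dehydrogenase subunit, had 1368 and 1442 FPKM in WT and 1013 and 1055 FPKM in KO. Its groups were apart but its log2 fold change of -0.44 did not pass (limma adjusted p = 0.0528), and its share of lactate dehydrogenase FPKM was 43.2% and 42.7% in WT and 46.7% in both KO libraries. ALDOC (-0.60), ENO2 (-0.46), BPGM (-0.26) and LDHD (0.15) were not called. LDHD, at 1.61 to 1.96 FPKM, stood at 1.19 after the length and GC correction (limma adjusted p = 0.00878) and was then called higher. PKLR, PGK2, PGAM2, PGAM4, LDHC and GAPDHS, most of them forms of liver, muscle or testis, were at or near 0, none above 0.108 FPKM. PKM was therefore nearly all of the pyruvate kinase FPKM, and ALDOA 98.5% to 99.0% of the FPKM of ALDOA and ALDOC together.

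Phosphofructokinase was the step at which the makeup of isozymes differed most. PFKP, the platelet type, was the most abundant at 147 and 151 FPKM in WT and 92.4 and 95.3 FPKM in KO. PFKM, the muscle type, had 45.2 and 37.5 FPKM in WT and 63.5 and 64.6 FPKM in KO. Both genes had groups apart, PFKP lower in KO and PFKM higher. PFKP had a log2 fold change of -0.66 (limma adjusted p = 0.00267) and PFKM of 0.64 (limma adjusted p = 0.00580), and neither reached 2-fold from FPKM as deposited. Under TPM, where the median of all genes was 0.59, PFKM stood at 1.32 (limma adjusted p = 0.000697) and was called higher. PFKP then stood at 0.02. Within libraries, PFKM went from 18.3% and 15.0% of the family's FPKM to 31.7% and 31.9%, PFKP from 59.5% and 60.3% to 46.1% and 47.0%, and PFKL stayed at 22.3% and 24.7% against 22.2% and 21.1%. The PFKM to PFKL ratio was 0.821 and 0.607 in WT and 1.43 and 1.51 in KO, apart (exact permutation p = 0.333). Canonical transcripts are 2626 nt long with 57.8% GC for PFKP, 2907 nt with 63.4% GC for PFKL and 3090 nt with 50.4% GC for PFKM. After the length and GC correction PFKM stood at 0.76, PFKL at 0.38 and PFKP at -0.09, with a smaller gap between PFKM and PFKL than before it.

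**Figure D4:**
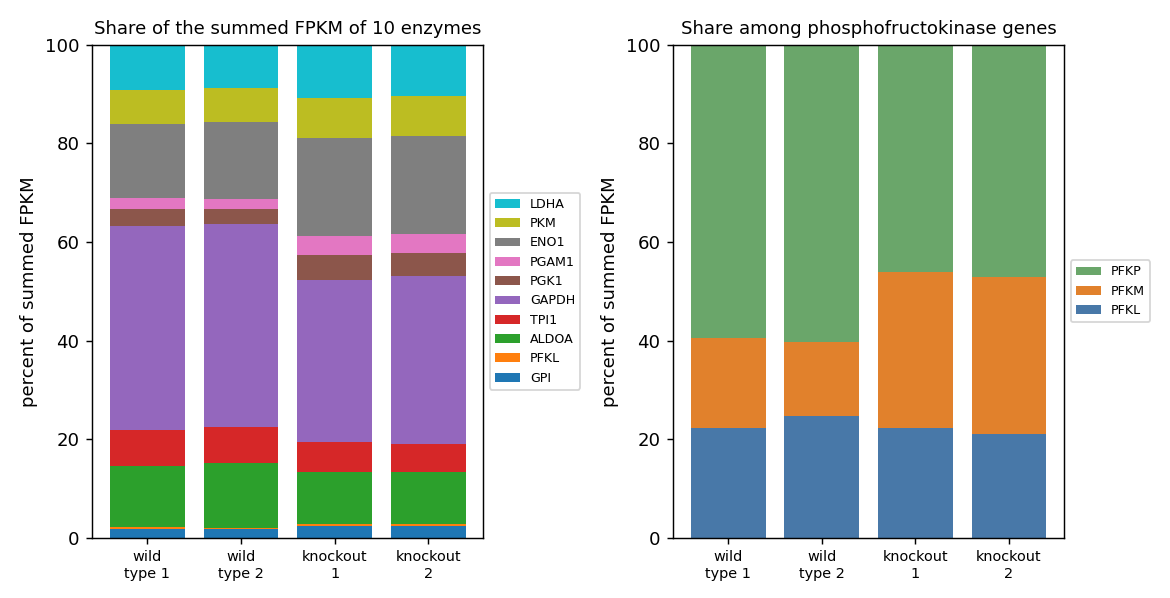
Left, percent of the summed FPKM of the 10 enzymes taken by each in each library; right, percent of phosphofructokinase FPKM from PFKL, PFKM and PFKP. The GAPDH band is narrower in both KO libraries, and the PFKM band is wider.

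Steps that feed or regulate the pathway were read from lists of gene names. In glucose phosphorylation and fructose 2,6-bisphosphate turnover, 8 of 12 genes were tested, 0 were called lower and 1 higher. That gene was PFKFB2, one of the enzymes that make the phosphofructokinase activator fructose 2,6-bisphosphate, at 3.55 and 2.77 FPKM in WT and 14.7 and 14.9 FPKM in KO. It was over 4-fold higher with the groups apart, a log2 fold change of 2.20 (SE 0.150, limma adjusted p = 0.000512), and 1.52 after the length and GC correction. HK1, the hexokinase of highest level, had 27.7 and 29.5 FPKM in WT and 21.6 and 24.2 FPKM in KO, a log2 fold change of -0.32 that did not pass.

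Transport of glucose and lactate had 9 of 17 genes tested, 2 called lower and 2 higher. BSG, the chaperone that brings monocarboxylate transporters to the cell surface, had 749 and 983 FPKM in WT and 335 and 346 FPKM in KO. It fell by 1.33 on the log2 scale (limma adjusted p = 0.00152), with the groups apart. SLC16A7, a monocarboxylate transporter at low level, rose from 2.07 and 1.83 FPKM to 11.7 and 12.5 FPKM (log2 fold change 2.58, limma adjusted p = 0.000486). The more abundant SLC16A3 had 520 and 520 FPKM in WT and 402 and 382 FPKM in KO. SLC16A1 had 49.1 and 50.7 FPKM in WT and 64.8 and 64.9 FPKM in KO. Neither was called, at -0.41 for SLC16A3 and 0.38 for SLC16A1, and at 0.52 and 0.07 after the length and GC correction. The SLC2 family genes SLC2A8 (-1.35) and SLC2A13 (1.21) were called in opposite directions, while SLC2A1, the common glucose transporter, stood at -0.06. After correction for length and GC content only SLC16A7 (1.43) of these 4 called genes was 2-fold different, and BSG stood at -0.30, SLC2A8 at -0.38 and SLC2A13 at 0.35. Other genes of the list gained a call by it, SLC2A3 at -1.08 (limma adjusted p = 0.00553) and SLC2A6 at 1.74 (limma adjusted p = 0.00370).

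Pyruvate entry and the pyruvate dehydrogenase complex had all 14 genes tested, with 0 called lower, 3 called higher and a median of 0.49. The 3 were PDP1 and PDP2, the phosphatase catalytic subunits that switch the complex on, and PDPR, their regulatory subunit. PDP1 had 2.14 and 1.82 FPKM in WT and 8.07 and 8.51 FPKM in KO. PDP2 had 2.96 and 3.03 FPKM in WT and 12.9 and 13.02 FPKM in KO. The phosphatase genes were about 4-fold higher in both KO libraries, with log2 fold changes of 2.01 for PDP1, 2.08 for PDP2 and 2.004 for PDPR, and of 1.59, 1.43 and 1.505 after the length and GC correction. The kinases that switch the complex off, PDK1 (0.39), PDK2 (-0.27), PDK3 (0.02) and PDK4 (0.76), were not called, nor were the subunits of the complex itself. Of these subunits DLAT, at 0.993 (limma adjusted p = 0.000671), was just short of 2-fold. PDHX stood at 0.68, DLD at 0.58, PDHB at 0.03 and PDHA1 at -0.81.

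The side branches were read next. In the pentose phosphate pathway, 12 of 13 genes were tested, 1 was called lower and 0 higher. It was PGLS, the lactonase of the oxidative branch, at 209 and 277 FPKM in WT and 73.4 and 79.7 FPKM in KO (log2 fold change -1.65, limma adjusted p = 0.000725). PGLS has one of the shorter transcripts here (1008 nt) and stood at -0.43 after correction. Of 9 tested genes on the list for the glycerol and serine branches, 2 were called lower and 1 higher. PHGDH, the first enzyme of serine synthesis, fell by 1.63 on the log2 scale (128 and 152 FPKM in WT, 42.6 and 47.5 FPKM in KO, limma adjusted p = 0.000538). GPD2, the mitochondrial glycerol phosphate dehydrogenase, rose by 1.71 (5.57 and 5.48 FPKM in WT, 18.2 and 18.5 FPKM in KO), and G6PC3, a glucose 6-phosphatase, fell by 1.04. G6PC3 is not an enzyme of either branch, and it was also the 1 gene called of the 4 tested on the list for gluconeogenesis. The groups were apart for all 3 genes, while after correction PHGDH stood at -0.79, GPD2 at 1.03 and G6PC3 at 0.03.

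The tricarboxylic acid cycle had 20 of 21 genes tested, 3 called lower and 1 higher. IDH3G (-1.07), SUCLG1 (-1.14) and MDH2 (-1.14), a subunit of isocitrate dehydrogenase, a subunit of succinyl-CoA ligase and the mitochondrial malate dehydrogenase, were lower. IDH3A, another subunit of the same isocitrate dehydrogenase, was higher, at 24.4 and 15.3 FPKM in WT and 52.7 and 55.9 FPKM in KO (log2 fold change 1.49, limma adjusted p = 0.00221). Transcripts are 1335 nt for IDH3G and 4083 nt for IDH3A, and the corrected values were 0.0066 and 1.19. SUCLG1 (-0.61) and MDH2 (-0.68) also lost their calls after correction. IDH3A kept its call, and DLST (1.13) and SUCLA2 (1.02), not called before, were then called higher.

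Hypoxia raises many glycolytic genes through HIF1, so other known hypoxia targets were listed beside them, with 17 of 18 tested, 4 called lower and 0 higher. CA9, a carbonic anhydrase, had 26.3 and 33.9 FPKM in WT and 3.03 and 0.971 FPKM in KO. NDUFA4L2, a mitochondrial protein, had 7.34 and 8.55 FPKM in WT and 0.633 and 0.0603 FPKM in KO. The KO libraries differed widely between themselves, and the lower NDUFA4L2 value lay below the 0.1 added before taking logs. Both genes were far lower in KO with the groups apart. Their log2 fold changes were -4.03 (limma adjusted p = 0.00113) and -4.55 (limma adjusted p = 0.00237), and -2.99 and -3.32 after the length and GC correction, where NDUFA4L2 lost its call (limma adjusted p = 0.0160) and CA9 kept it. EGLN3, a HIF prolyl hydroxylase, was called lower at -1.13 and ANKRD37 at -1.06, and after correction EGLN3 (-1.04) was still called and ANKRD37 (-0.47) was not. The other 13 tested targets were not called, among them VEGFA (0.44), BNIP3 (-0.69) and EGLN1 (0.85), and the median of the list was -0.14 beside -0.09 over all genes, and -0.30 beside 0.11 after correction. Of the genes called lower in the 9 lists, CA9 and NDUFA4L2 were still called under TPM and the others were not.

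**Figure D5:**
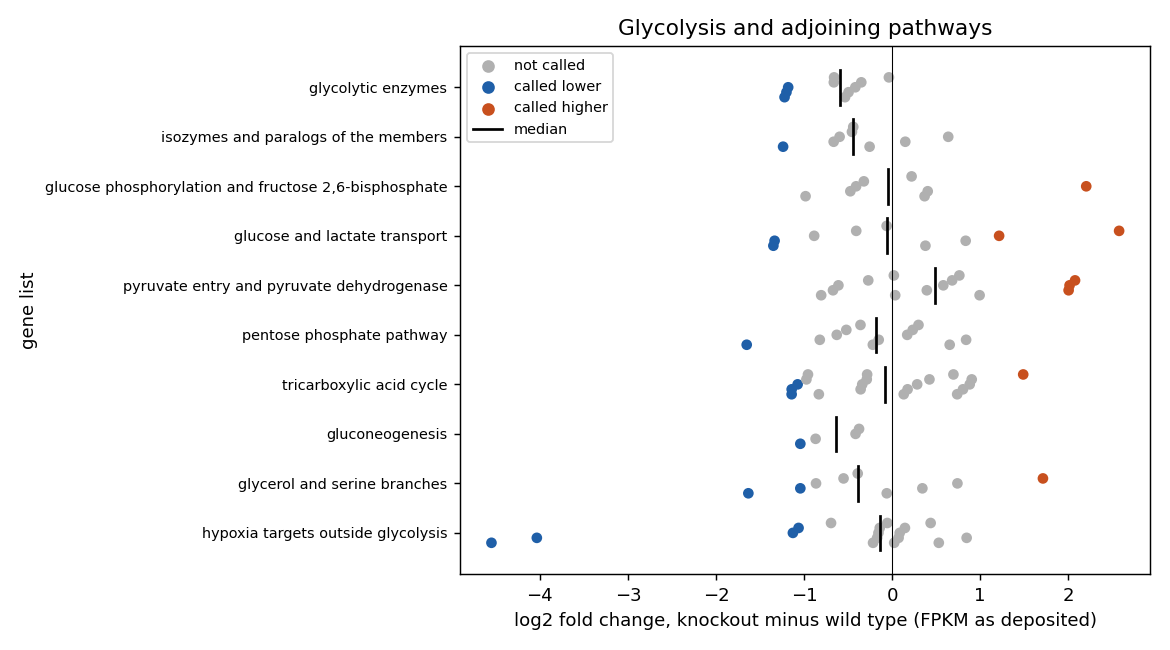
Log2 fold change (KO minus WT, FPKM as deposited) of each tested gene in the 10 enzymes and 9 lists of adjoining pathways, with called genes in blue (lower) or orange (higher) and a black bar at each list's median. The 10 enzymes lie on the left of 0, while the pyruvate dehydrogenase list has 3 called genes on the right.

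Promoter sequences of 9 of the enzymes (all but GAPDH) were read because the called genes fell together and HIF1 and MYC are textbook regulators of this pathway. Windows of 250 bases before the canonical start site in GENCODE release 44 were searched on both strands of hg38 for ACGTG and GCGTG, the core to which HIF1 binds, for CACGTG, the E-box of MYC, which also holds ACGTG on each strand, for GGGCGG, a GC box, and for TATAAA. Of the HIF1 core letters, at least 1 match was found in 7 of the 9, against 57.7% of the promoters of 13112 tested genes. GGGCGG was in 8 of the 9 (67.1% of all), CACGTG in LDHA only (8.90% of all) and TATAAA in 0 of the 9 (6.002% of all). The window of ALDOA, called lower, is shown with those of PGK1 and LDHA, which were not called and held more matches. All lie on the plus strand and read 5′ to 3′ toward the start site, with capitals for ACGTG or GCGTG on either strand (CACGT and CACGC are their reverse complements).
ALDOA (chr16:30065510-30065759): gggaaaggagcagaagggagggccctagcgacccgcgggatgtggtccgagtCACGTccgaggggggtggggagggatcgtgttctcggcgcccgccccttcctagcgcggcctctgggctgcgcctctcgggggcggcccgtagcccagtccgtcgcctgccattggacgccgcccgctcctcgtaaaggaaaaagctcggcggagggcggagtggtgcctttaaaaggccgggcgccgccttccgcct
PGK1 (chrX:78103998-78104247): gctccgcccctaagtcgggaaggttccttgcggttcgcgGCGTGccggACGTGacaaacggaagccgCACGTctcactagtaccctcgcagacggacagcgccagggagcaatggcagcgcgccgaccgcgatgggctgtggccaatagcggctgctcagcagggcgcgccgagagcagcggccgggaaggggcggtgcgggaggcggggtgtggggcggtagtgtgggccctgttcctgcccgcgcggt
LDHA (chr11:18394313-18394562): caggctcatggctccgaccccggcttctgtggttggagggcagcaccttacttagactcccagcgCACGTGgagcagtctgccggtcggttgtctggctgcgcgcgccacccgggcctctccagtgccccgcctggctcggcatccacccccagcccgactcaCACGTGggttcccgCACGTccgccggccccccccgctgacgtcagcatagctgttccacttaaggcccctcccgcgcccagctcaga

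ALDOA held 1 match, PGK1 3 and LDHA 5, in part within its 2 CACGTG runs. TPI1, called lower, held 0 in its window (not shown, since it overlaps exons of another TPI1 transcript), as did PKM, which was not called, and the other 4 held 1 or 2. The number of matches thus did not separate ALDOA and TPI1 from the enzymes not called. A match is a run of letters and not a bound site, and a window without one says only that these letters are not in it.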

How the data were processed

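Polyadenylated RNA of 2 WT and 2 KO libraries was sequenced by the authors, mapped to hg38 with TopHat2 and summarised per gene with Cuffdiff of the Cufflinks suite, per the submitters' processing notes. Versions, library normalization and strand use are not given in the sources used here. The deposited values are FPKM, not counts, so depth is unknown and no counting intervals are given. The authors' condition averages, fold changes, p-values and q-values were not used. Identifiers were out of register with the symbols and were put back in order, after which all 10 enzymes matched GENCODE release 44.

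limma 3.58.1 (R 4.3.3, trend) was run on log2(FPKM + 0.1) of the 13246 genes averaging above 1 FPKM, with Benjamini-Hochberg adjustment over them. Fold changes are on that scale and understate changes of low genes. Calls needed an adjusted p under 0.01 and 2-fold, the study's own thresholds. Single ratios used exact two-sided permutation tests (Python 3.11.15 with numpy 2.4.6). The enzymes and lists were chosen with earlier results of these data known. Named are the 10 enzymes, the called genes of each list (the 4 largest where more), isozymes above 1 FPKM, reference genes, TXNDC9 and processed copies. Some genes and 1 sequence are not reported here. Named after their values were seen were HK1, SLC2A1, SLC2A3, SLC2A6, SLC16A1, SLC16A3, the PDK genes, DLST, SUCLA2, VEGFA, BNIP3 and EGLN1. So were the subunits of the pyruvate dehydrogenase complex, the isozymes near 0 and the genes overlapping an enzyme. Alternatives were pseudocounts of 1 and 0.01, no filter, an average above 5, an adjusted p under 0.05, TPM, centring on the median, no trend, the replicate block, a loess correction (span 0.3) for length and GC content, and leaving out each library. Promoters and lengths came from hg38 and GENCODE.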

Additional observations from a re-analysis of the deposited data

How the results depend on the processing

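Pseudocounts, the trend, the median centring and an adjusted p under 0.05 left 3 enzymes called. No filter (26435 genes, lowest adjusted p of an enzyme 0.0157 by limma, 5 with an unadjusted p under 0.05), TPM, and the length and GC correction with or without the replicate block left 0 called by limma, with 6 enzymes at an unadjusted p under 0.05 in each of the last 3. Leaving out a library gave 0 to 3. It was 0 without either KO library, when the lone library is assumed to vary like the WT pair, and 2 without the second WT library. Over all genes, lower calls were 447 under TPM, 661 corrected and 666 corrected with the block, and 0 to 2633 with a library left out. Higher calls were 1220 above 5 FPKM, 4380 under TPM, 1130 corrected, 1038 corrected with the block, and 0 to 2136. In the 9 lists, 13 lower and 8 higher calls became 2 and 31 under TPM. Lower calls were 3 corrected with or without the block. With a library left out they were 0 to 16 lower and 0 to 11 higher. The enzymes' median was 0.0839 under TPM, -0.74 centred and -0.18 corrected, also with the block. The cause of these shifts was not tested.

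Directions turned under TPM for GPI (0.19), PFKL (0.26), PGK1 (0.33), PGAM1 (0.64), ENO1 (0.15), PKM (0.0218), LDHA (0.0188), TXNDC9 (0.12), ALDOC (0.0813), PFKP (0.0162), BPGM (0.42), ENO2 (0.22) and LDHB (0.24). They turned under the correction, with or without the block, for PFKL (0.38), PGAM1 (0.58), ENO1 (0.17), ALDOC (0.22), BPGM (0.10), ENO2 (0.036), LDHB (0.0178), IDH3G (0.0066) and G6PC3 (0.0303). PGAM1 was at -0.092 to 0.0186 with a library left out. The log2 difference of GAPDH over ACTB was -0.0426 to 0.21 with a library left out, and with another reference it was -0.63 (B2M), -0.99 (TBP), -0.98 (HPRT1), -0.37 (PPIA), -1.63 (YWHAZ), -0.40 (RPLP0), -0.38 (GUSB), -3.41 (TFRC), -0.86 (SDHA) and -1.31 (POLR2A).

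WT and KO libraries share replicate numbers, but same-numbered libraries did not deviate together (correlation of deviations -0.09 across 13246 genes), so the numbers were not taken as pairs. The replicate block gave 3 enzymes called, 2146 genes lower and 1960 higher, and changed no call among the named genes. Depth is unknown, so low FPKM such as those of CA9 and NDUFA4L2 in KO carry an unknown counting error, and groups of 2 libraries allow no test for an outlying library.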
